A study of Homo sapiens with 6 samples.

Results

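The 9 genes described here, CDX2, GATA2, GATA3, TFAP2A, TFAP2B, ELF5, TP63, KRT7 and CGA, mark trophoblast or amnion, and were taken as a named list out of 20037 protein-coding genes of the RefSeq table of GRCh38.p14. Every ATAC-seq summit inside one of these genes or within 20 kb of it was collected. This gave 263 of the 356720 summits in the 6 deposited lists. Summits of different libraries were merged into 86 of 123131 loci, where a library held a locus if one of its summits lay within 250 bp of the locus centre. The cells were H1, an established human embryonic stem cell line, grown in mTeSR1 on Matrigel. All received a lentiviral short hairpin RNA packaged in 293T cells, followed by puromycin selection. The hairpins were shHNRNPU #1 and shHNRNPU #2, against the nuclear matrix RNA-binding protein HNRNPU, and shLUC, against luciferase, as the control. Each hairpin had 2 libraries, called repeats 1 and 2, so that 4 shHNRNPU libraries were compared with 2 shLUC libraries.

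Trophoblast is the outer lineage of the blastocyst that builds the placenta, and amnion is the epithelium that encloses the embryo. Pluripotent cells exposed to BMP signals can leave the pluripotent state toward either fate. The transcription factors GATA2, GATA3, TFAP2A and CDX2 are early players in that exit, ELF5 and TP63 mark trophoblast progenitors, TFAP2B is a relative of TFAP2A, KRT7 is a keratin of trophoblast epithelium, and CGA is the alpha subunit of chorionic gonadotropin. In ATAC-seq the Tn5 transposase inserts adapters into accessible DNA, so that a summit marks the most cut base of an open stretch, often a promoter or an enhancer.

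Libraries held between 52168 and 63519 summits. The lists contain no read counts, so that depth is unknown, and "closed" is used below for a place where the peak caller made no call. A summit's score is the −log10 q-value of its peak within its own library, and is not normalised between libraries. It was therefore turned into a percentile, where 100 is the strongest summit of that library. The amount of HNRNPU cannot be read from these data. All 10 pluripotency genes examined, among them POU5F1, SOX2 and NANOG, had a summit within 2000 bp of a gene end in all 6 libraries. This held for 3 of 6 fibroblast genes and for 68.5% of all protein-coding genes. It also held for 7 of 9 endoderm, 7 of 8 mesoderm and 7 of 8 neuroectoderm genes. An open end was therefore not particular to pluripotency genes. The labels do not say that repeats came from separate cultures, and p-values then measure only the spread between these samples. An exact permutation test on groups of 4 and 2 libraries has 15 assignments, so its two-sided p cannot fall under 0.133, and no single comparison below could reach 0.05.

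Promoter sequences of 6 starts are shown because they carry the contrast between open and closed starts that follows. They come from RefSeq on GRCh38.p14, which listed 15 starts for 8 of the 9 genes. Each sequence runs 5′ to 3′ along the gene's strand, from 250 bases before the start to 50 bases after it. Capitals mark matches on either strand to 7 short motifs. TATAAA is the core of the TATA box, and TGACGTCA is the cAMP response element. GCCNNNGGC is the core bound by AP-2 factors such as TFAP2A, and AGATAA is a form of the site of GATA factors. CCAAT is the site of NF-Y and GGGCGG is the GC box of Sp1-type factors. GGAATG is a form of the site of TEAD factors. The TFAP2A outer start (chr6:10419610-10419909, minus strand) and the GATA3 start at 8053641 (chr10:8053391-8053690, plus strand) had summits nearby in all 6 libraries. The GATA2 outer start (chr3:128493152-128493451, minus strand) was closed in all, and the GATA2 inner start (chr3:128488481-128488780, minus strand) was open in all. The CGA start (chr6:87095057-87095356, minus strand) was closed in all, and the ELF5 start (chr11:34511675-34511974, minus strand) had a summit nearby in 5 libraries.

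TFAP2A outer: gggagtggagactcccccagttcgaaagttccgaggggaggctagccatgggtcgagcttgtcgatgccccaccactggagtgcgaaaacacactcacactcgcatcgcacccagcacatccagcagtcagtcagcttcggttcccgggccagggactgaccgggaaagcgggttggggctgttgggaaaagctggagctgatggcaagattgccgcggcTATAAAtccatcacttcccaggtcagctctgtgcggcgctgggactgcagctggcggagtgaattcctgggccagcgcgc
GATA3 at 8053641: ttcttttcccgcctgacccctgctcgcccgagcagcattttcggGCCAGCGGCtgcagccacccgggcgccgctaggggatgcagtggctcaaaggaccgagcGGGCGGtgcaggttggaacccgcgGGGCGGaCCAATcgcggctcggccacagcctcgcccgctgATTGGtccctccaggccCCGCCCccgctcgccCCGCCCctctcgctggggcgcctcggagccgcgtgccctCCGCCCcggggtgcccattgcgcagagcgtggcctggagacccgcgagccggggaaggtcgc
GATA2 outer: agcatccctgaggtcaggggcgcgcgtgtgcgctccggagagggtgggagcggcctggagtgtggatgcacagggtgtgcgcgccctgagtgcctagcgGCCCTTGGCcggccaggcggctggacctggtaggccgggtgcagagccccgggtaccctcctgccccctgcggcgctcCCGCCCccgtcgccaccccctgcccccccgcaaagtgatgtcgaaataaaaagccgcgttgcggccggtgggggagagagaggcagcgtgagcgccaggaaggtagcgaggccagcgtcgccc
GATA2 inner: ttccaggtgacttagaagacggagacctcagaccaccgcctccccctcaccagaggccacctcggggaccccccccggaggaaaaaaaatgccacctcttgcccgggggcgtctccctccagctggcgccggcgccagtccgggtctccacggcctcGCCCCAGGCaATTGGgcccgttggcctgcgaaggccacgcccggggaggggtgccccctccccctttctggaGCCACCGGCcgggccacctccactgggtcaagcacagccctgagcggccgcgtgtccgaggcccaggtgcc
CGA: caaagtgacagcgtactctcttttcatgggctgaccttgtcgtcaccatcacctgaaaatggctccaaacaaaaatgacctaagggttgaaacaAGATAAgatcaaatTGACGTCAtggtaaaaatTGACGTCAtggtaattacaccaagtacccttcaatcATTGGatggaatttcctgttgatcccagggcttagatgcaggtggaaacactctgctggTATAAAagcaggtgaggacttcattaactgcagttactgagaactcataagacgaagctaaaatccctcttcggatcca
ELF5: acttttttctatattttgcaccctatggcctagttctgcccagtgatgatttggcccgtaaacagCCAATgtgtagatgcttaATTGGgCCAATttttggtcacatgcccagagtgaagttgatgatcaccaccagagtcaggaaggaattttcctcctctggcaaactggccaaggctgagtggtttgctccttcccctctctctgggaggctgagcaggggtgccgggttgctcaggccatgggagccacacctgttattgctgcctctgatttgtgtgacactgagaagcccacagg

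The CGA promoter had 2 copies of TGACGTCA, from base −142 to −135 and from −124 to −117 relative to the start, and no other promoter of the 15 contained this motif. Over all 22199 listed starts of protein-coding genes, 2.26% held it within the same window. TATAAA was present in 5 of the 15 promoters, of CGA, GATA3, TFAP2A, TFAP2B and TP63, against 9.47% of all promoters. It stood at −29 to −24 in CGA and at −30 to −25 in the TFAP2A outer promoter. GGGCGG was present in 5 of the 15, of GATA2 and GATA3, against 56.3% of all promoters, and the GATA3 promoter at 8053641 had 5 copies. GCCNNNGGC was present in promoters of CDX2, GATA2 and GATA3, and in 27.3% of all promoters. AGATAA was present in those of CDX2 and CGA, against 7.91% of all. CCAAT was present in 8 of the 15, including 3 copies in ELF5, against 34.7% of all, and GGAATG in 1 of the 15, against 12.2%. Motif matches did not overlap one another in the sequences shown.

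Which gene ends were closed in every library was asked first. Of the 15 listed starts, 4 had no summit within 2000 bp in any library. These were the outer start of GATA2, the GATA3 start at 8060457, the TP63 start at 189631389 and the CGA start. Over all protein-coding genes, 22.3% of listed starts were closed in this sense. Another 5 starts were open in all 6 libraries, namely the inner start of GATA2, the GATA3 starts at 8053641 and 8054688, and both starts of TFAP2A, against 66.8% of listed starts over all genes. The remaining 6 starts had a summit in some libraries, including those of CDX2, TFAP2B and ELF5.

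Both ends of each gene span were counted in the same way, which also covers KRT7. Of 18 ends, 7 were closed in all 6 libraries, against 49.8% of the ends of all genes. These were both ends of GATA2, the far ends of GATA3 and ELF5, the higher-coordinate end of KRT7, and both ends of CGA. Another 4 ends were open in all libraries, against 37.8% over all genes. They were the far end of CDX2, both ends of TFAP2A and the lower-coordinate end of KRT7. CGA and GATA2 were the 2 genes of the 9 with neither end of the span open in any library, which held for 20.2% of all genes, although GATA2 had an open start inside its span. When the distance was reduced to 500 bp, 12 ends and 7 listed starts were closed in all libraries. With summits of a score of at least 5 only, 10 ends and 5 listed starts were closed. Shares over all genes were computed only at 2000 bp and without a score filter. The counts at other settings therefore have no background to be set against.

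The openness of the listed starts was set beside the CpG content of the promoter windows, measured as the observed number of CpG dinucleotides over the number expected from base composition. Starts of all genes were divided into 10 deciles by this ratio. The share open in all 6 libraries was 9.19% in the lowest decile, 65.1% in the fourth and 90.3% in the sixth. The GATA2 outer promoter, with a ratio of 0.744 and a GC content of 72.3%, fell in the sixth decile, where 3.47% of starts were closed in all libraries as it was. The inner GATA2 promoter had a lower ratio of 0.590 and was open in all. TP63 (0.491) and CGA (0.447) fell in the fourth decile, where 20.5% of starts were closed in all. The closed GATA3 start at 8060457 had a ratio of 0.263 and fell in decile 2, where 62.1% were closed in all. ELF5 had the lowest ratio of the 15, at 0.101, and a summit within 2000 bp in 5 libraries. Those summits lay outside its promoter window. Their loci (ELF5 loci 2 and 3) were 731 and 191 bp from the outer end of the ELF5 span, and inside it. This is a description of 15 windows, of which 6 belong to GATA3.

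**Figure D1:**
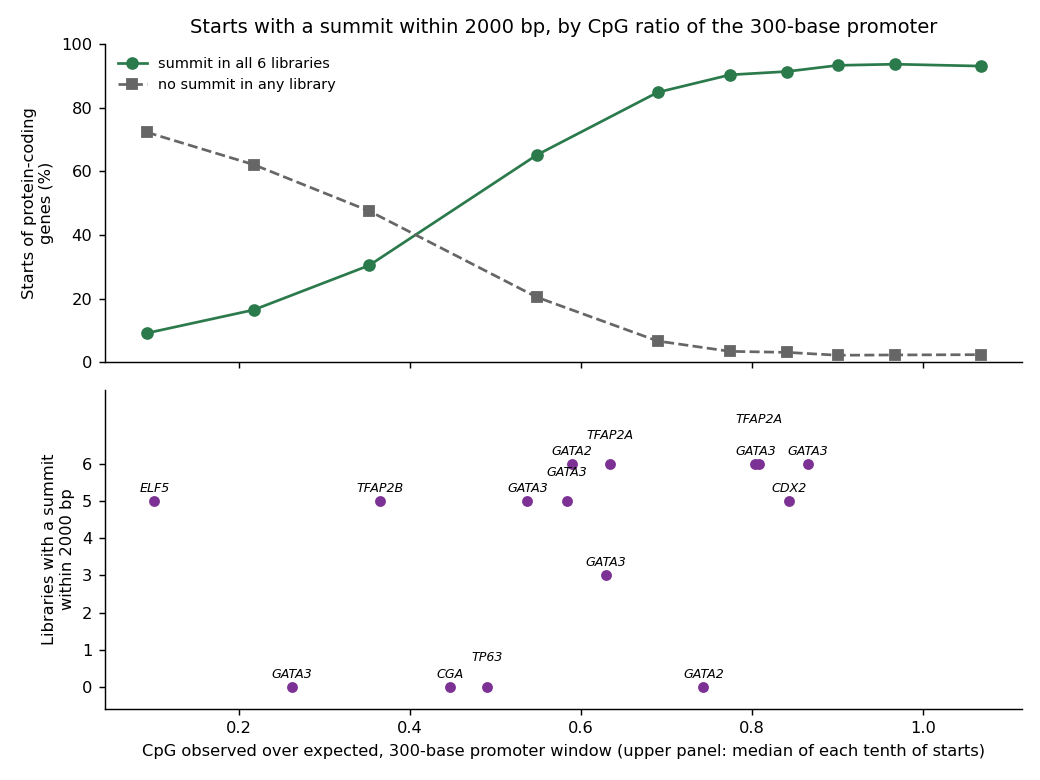
The upper panel plots the percentage of starts of protein-coding genes with a summit within 2000 bp in all 6 libraries or in none, against the median CpG ratio of each decile of starts, and the lower panel plots, for each of the 15 listed starts, the number of libraries with such a summit against its CpG ratio. The outer start of GATA2 lies at 0 libraries with a ratio of 0.744, where 3.47% of starts were closed in all libraries.

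The next question was how much open chromatin each gene had, and whether this differed with shHNRNPU. Per 100 kb of window, TFAP2A had the most summits, with 18.3 on average over the 6 libraries, followed by CDX2 with 12.7. TFAP2B (8.66), GATA3 (8.11), KRT7 (7.19) and GATA2 (5.89) were intermediate. ELF5 (1.56), TP63 (1.52) and CGA (1.01) had the fewest. In number of summits per window, 98.2% of all genes had a lower mean than TFAP2A, 81.8% than TP63 and 54.0% than GATA2. For ELF5 and CGA this was 16.0% and 8.88%. The window of TP63 was 341 kb long. The median of the mean number was 5.17 for the 9 genes and 2.83 over all genes, without adjustment for window length. In numbers of summits the ranges of TFAP2B (4 to 7 per library) and GATA3 (4 to 8), whose windows are close in length, overlapped, and so did those of ELF5 (0 to 3) and CGA (0 to 1).

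TFAP2A was the single gene of the 9 whose number of summits did not overlap between the groups. With shHNRNPU #1 its window had 13 and 14 summits, with shHNRNPU #2 it had 12 and 11, and with shLUC it had 9 and 10. All 4 shHNRNPU libraries were thus above both controls. The means were 12.5 ± 1.29 (SD, n = 4) and 9.50 ± 0.707 (SD, n = 2), a difference of 3 summits (exact permutation test, two-sided, p = 0.133, Benjamini-Hochberg adjusted p = 1 over all genes). Over all protein-coding genes, 3.31% had more summits with shHNRNPU without overlap and 3.67% had fewer, and a count of 1 among 9 genes is no result about the list. With a window of 5 kb in place of 20 kb, the difference in TFAP2A was 0.5 summits and the groups overlapped.

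In the other 8 genes the groups overlapped in the number of summits. CDX2 had 6 and 9 summits with shHNRNPU #1, 5 and 6 with shHNRNPU #2, and 5 and 6 with shLUC. GATA2 had 3 and 6, 2 and 3, and 3 and 2, in the same order. GATA3 had 8 and 6, 5 and 4, and 5 and 6, so that the controls lay within the range of the shHNRNPU libraries. TFAP2B, at 6 and 6, 6 and 7, and 4 and 7, spread more between its 2 control libraries than among the 4 others. TP63 had 5 and 4, 8 and 5, and 6 and 3 summits, with no order between the groups. KRT7 had 5 and 5, 4 and 4, and 4 and 5, with the same mean of 4.50 in both groups. ELF5 had 1 and 1, 3 and 1, and 0 and 1, and CGA 0 and 1, 0 and 1, and 1 and 0. These counts leave ELF5 and CGA near the floor, where a single summit decides the difference.

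Added over the 9 windows, which cover 832047 bp, the shHNRNPU libraries had 47, 52, 45 and 42 summits and the shLUC libraries 37 and 40. All 4 sums with shHNRNPU were above both controls, with means of 46.5 ± 4.20 (SD, n = 4) and 38.5 ± 2.12 (SD, n = 2). As a share of the library this was 0.0770% to 0.0819% with shHNRNPU and 0.0595% to 0.0652% with shLUC. Without TFAP2A the sums were 34, 38, 33 and 31 against 28 and 30. The mean was higher with shHNRNPU in 7 genes, lower in 0 and equal in 2 (KRT7 and CGA). Over all genes 39.0% had a higher and 37.4% a lower mean. The median difference per gene was 1 summit for the 9 genes and 0 over all genes. It was also 1 for 8 neuroectoderm genes, 0.75 for 9 endoderm genes and 0.5 for 8 mesoderm genes. For 8 amnion, 25 other trophoblast and 10 pluripotency genes it was 0.375, 0 and −0.125. A higher number was therefore not particular to this list, and the sums were not tested. The sums of both groups overlapped with windows of 5 kb or of 50 kb.

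**Figure D2:**
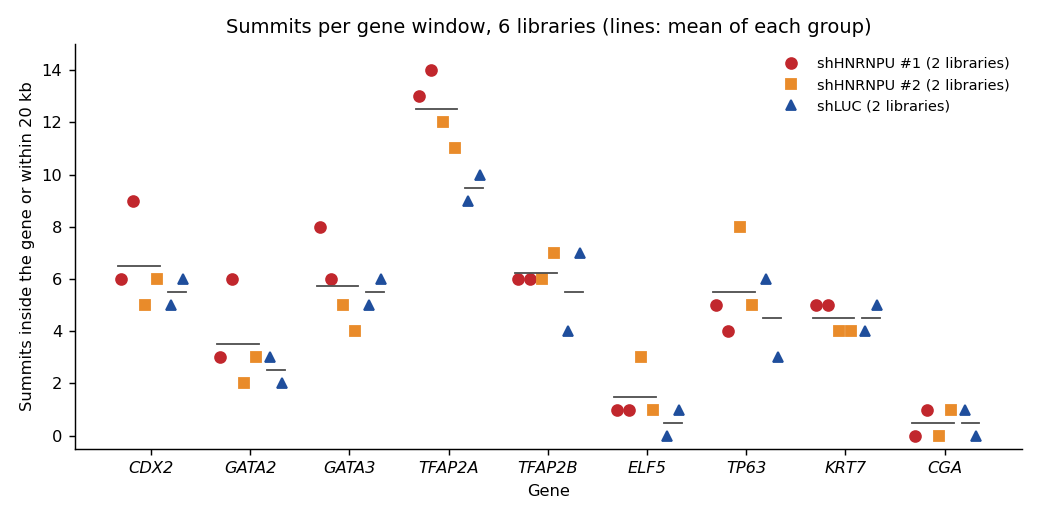
Number of summits inside each gene or within 20 kb of it (vertical axis) in the 6 libraries, by hairpin, with a line at the mean of the 4 shHNRNPU and of the 2 shLUC libraries. TFAP2A is the one gene in which all shHNRNPU points (11 to 14) lie above both shLUC points (9 and 10).

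The strength of the summits was compared through the highest percentile in each window. TFAP2A contained a summit near the top of the score range in every library, with percentiles of 99.3 and 99.8 with shHNRNPU #1, 96.8 and 98.6 with shHNRNPU #2, and 98.5 and 97.3 with shLUC. The groups overlapped. Of all protein-coding genes, 93.7% had a lower mean than TFAP2A in this measure, against 37.6% for CDX2, 30.1% for TP63 and 27.9% for GATA2. The corresponding shares were 22.4% for KRT7, 21.9% for TFAP2B, 15.9% for GATA3, and 12.6% for both ELF5 and CGA.

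TP63 was the single gene whose highest percentile did not overlap between groups, and it was lower with shHNRNPU. Its values were 72.2 and 66.0 with shHNRNPU #1, 73.0 and 63.8 with shHNRNPU #2, and 88.2 and 77.1 with shLUC. The means were 68.8 ± 4.56 (SD, n = 4) and 82.7 ± 7.82 (SD, n = 2), a difference of −13.9 percentile points (exact permutation test, two-sided, p = 0.133, adjusted p = 0.637 over all genes). Such a lower value without overlap was found in 9.64% of all genes and a higher one in 11.3%. Leaving out shLUC repeat 1 or repeat 2 gave differences of −8.37 and −19.4, so that the size rests on which control is used.

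The highest percentile of the other genes overlapped between groups. For CDX2 it was 78.7 and 83.7 with shHNRNPU #1, 81.6 and 82.0 with shHNRNPU #2, and 67.8 and 82.7 with shLUC. For GATA2 it was 70.4 and 70.9, 74.8 and 68.2, and 79.7 and 62.8, with the controls on both sides of all other libraries. GATA3 was weaker and more scattered, at 55.9 and 55.2, 40.6 and 27.1, and 67.5 and 47.0. TFAP2B had 76.2 and 48.7, 59.6 and 48.5, and 71.5 and 73.4, and its highest value was that of shHNRNPU #1 repeat 1. KRT7 had 53.8 and 69.7, 62.5 and 58.2, and 67.8 and 72.4. ELF5 had 21.5 and 45.5, 53.4 and 43.7, and 30.1 in shLUC repeat 2, with no summit in shLUC repeat 1. CGA had one summit in each of 3 libraries, at 55.2 in shHNRNPU #1 repeat 2, 74.4 in shHNRNPU #2 repeat 2 and 64.0 in shLUC repeat 1.

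The 86 loci show where these summits lie. TFAP2A had 18 loci, TP63 16, CDX2 13, TFAP2B 12, GATA3 10, GATA2 7, KRT7 6, ELF5 3 and CGA 1. Of these, 15 were present in all 6 libraries (17.4%, against 20.7% of all loci) and 29 in one library (33.7%, against 38.0%). In TP63, 12 of its 16 loci were found in one library. The 15 loci present throughout had a median percentile of 51.6 (range 23.2 to 98.4), against a median of 73.7 over the 25519 such loci of the genome. In 6 pairs of neighbouring loci the centres lay within 500 bp, so that these may share summits. CDX2 loci 8 and 9, GATA3 loci 1 and 2, and TFAP2A loci 1 and 2 did so in some libraries. The table of genes gives spans and starts only, and exons, introns and untranslated regions were not told apart.

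**Figure D3:**
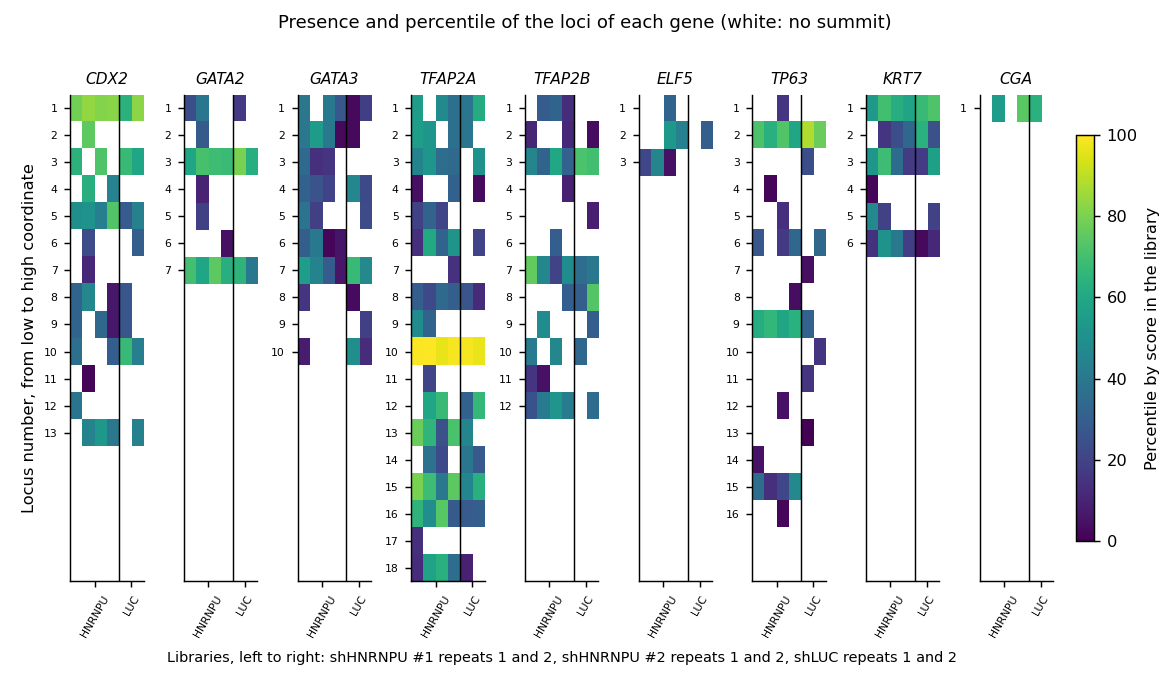
Each column of cells is a library and each row a locus, numbered from low to high coordinate within each gene, with colour for the percentile of the summit within its library (0 to 100) and white for no summit. Most loci of TP63 are filled in one library, and TFAP2A locus 10 is near 100 in all 6.

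At TFAP2A, the strongest of these loci was locus 10 (chromosome 6, position 10404459), with percentiles from 96.8 to 99.8. It lay inside the gene and 43 bp from an end of the antisense transcript gene TFAP2A-AS2, so that the file does not tell which gene it belongs to. TFAP2A locus 16, 145 bp downstream of the outer start, had percentiles of 64.9 and 49.2 with shHNRNPU #1, 73.9 and 28.3 with shHNRNPU #2, and 28.8 and 30.3 with shLUC, and the groups overlapped. Loci of this window differed in how many libraries of each group held them. TFAP2A loci 3, 6, 13 and 18 were each present in 4 shHNRNPU libraries and 1 shLUC library. Locus 5 was present in 3 and 0, and locus 9 in 2 and 0. Loci 12 and 14 went the other way, with 2 of 4 shHNRNPU libraries and both shLUC libraries, and locus 1 was held by 3 and by both. Loci 12 and 13 lie within 500 bp of each other, and both shLUC libraries had a summit within 1000 bp of locus 13. Locus 2 was present in 3 and 1, and loci 7, 11 and 17 were each present in 1 and 0. Where present, the mean percentiles of loci 3, 5, 6, 9, 13 and 18 ran from 24.2 at locus 5 to 57.0 at locus 13. That of locus 2 was 46.0, and those of loci 7, 11 and 17 were 14.2, 20.8 and 14.0. This is the middle and lower part of the score range. None of these met the definition of a gained or lost locus, and they were chosen after their values were seen.

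**Figure D4:**
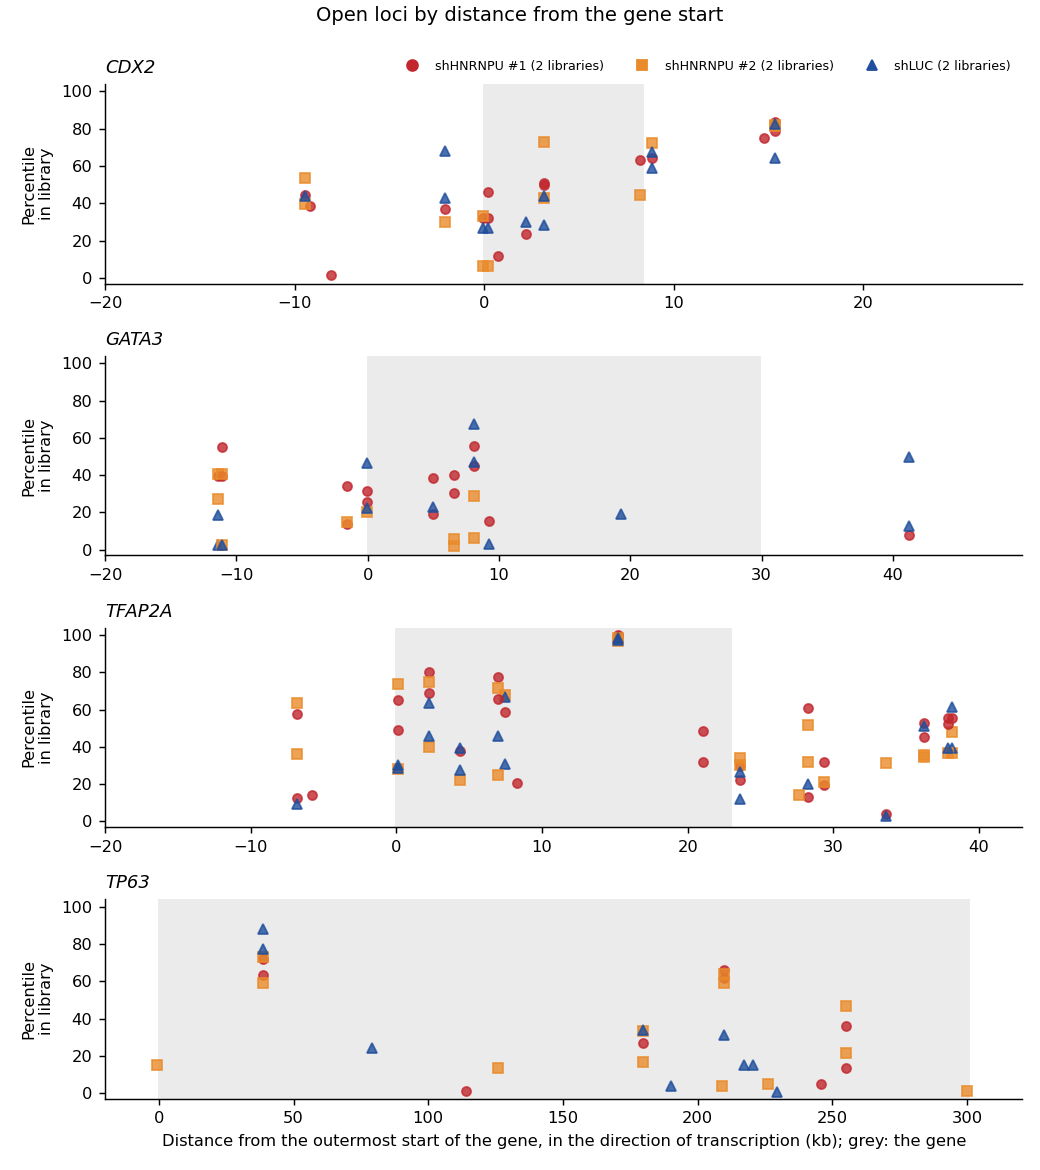
Percentile of each summit within its library (vertical axis) against the distance in kb of its locus from the outermost start, in the direction of transcription, for CDX2, GATA3, TFAP2A and TP63, with the gene in grey and symbols for the hairpins. TFAP2A has one locus between 96.8 and 99.8 in all 6 libraries, and the loci of TP63 are spread over a gene of 301 kb.

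A locus was called lost if both shLUC libraries and no shHNRNPU library held it, and gained if all 4 shHNRNPU libraries and no shLUC library held it. Of the 86 loci 0 were lost and 2 were gained, and over all loci of the genome 1.93% were lost and 0.880% were gained. Presence calls in lists without read counts carry no test here. The gained loci were GATA3 locus 6 and TP63 locus 15.

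GATA3 locus 6 (chromosome 10, position 8051892) lay inside the gene, 656 bp downstream of the start at 8051236, in sequence also covered by GATA3-AS1. Its percentiles were 30.4 and 40.3 with shHNRNPU #1 and 1.95 and 5.82 with shHNRNPU #2, so that the summits of the second hairpin were among the weakest of their libraries. The nearest shLUC summit was 1576 bp away. TP63 locus 15 (chromosome 3, position 189851832) lay inside the gene with percentiles of 36.0 and 13.7 with shHNRNPU #1 and 21.4 and 47.0 with shHNRNPU #2. Here the nearest shLUC summit was 25721 bp away. With summits of a score of at least 5 only, 1 locus was gained, and with lists cut to one size 4 were gained.

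The loci present in all 6 libraries were compared by percentile. Of 15, 2 were lower with shHNRNPU without overlap and 1 was higher, against 13.9% lower and 10.9% higher over the 25519 such loci. The share of calls among these 15 is therefore near that of the genome. With a match distance of 100 bp, TFAP2B locus 3 and KRT7 locus 6 were each held by 5 libraries and no longer counted, which left 0 higher and 1 lower. Each of the 3 had p = 0.133 (exact permutation test, two-sided) and an adjusted p of 0.538 over all such loci.

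TFAP2B locus 3 (chromosome 6, position 50824686), inside the gene and 5815 bp downstream of its start, was the strongest of TFAP2B. Its percentiles were 45.5 and 32.1 with shHNRNPU #1, 59.6 and 31.3 with shHNRNPU #2, and 71.5 and 69.7 with shLUC. The mean was 42.1 with shHNRNPU and 70.6 with shLUC, a difference of −28.5. TP63 locus 2 (chromosome 3, position 189635569), 4180 bp downstream of the closed start, was the strongest of TP63, with 72.2 and 63.5, 73.0 and 59.3, and 88.2 and 77.1. The means were 67.0 and 82.7, a difference of −15.6, which was −10.1 without shLUC repeat 1 and −21.2 without shLUC repeat 2. In 4 libraries this summit was also the highest percentile of the TP63 window given above. In the remaining libraries, repeat 2 of each shHNRNPU hairpin, the highest was TP63 locus 9 (position 189806410). That locus had 62.0 and 66.0, 58.9 and 63.8 with shHNRNPU, 31.4 in shLUC repeat 1 and no summit in shLUC repeat 2.

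KRT7 locus 6 (chromosome 12, position 52258585) was higher with shHNRNPU. It had percentiles of 14.7 and 51.4 with shHNRNPU #1, 40.5 and 18.0 with shHNRNPU #2, and 2.72 and 11.7 with shLUC. The means were 31.2 and 7.22, a difference of 23.9. This locus lay 2732 bp outside KRT7 and 77 bp from an end of the pseudogene KRT87P. Its placement is uncertain, since keratin genes have near copies and how multiply mapped reads were treated is not given in the sources used here.

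**Figure D5:**
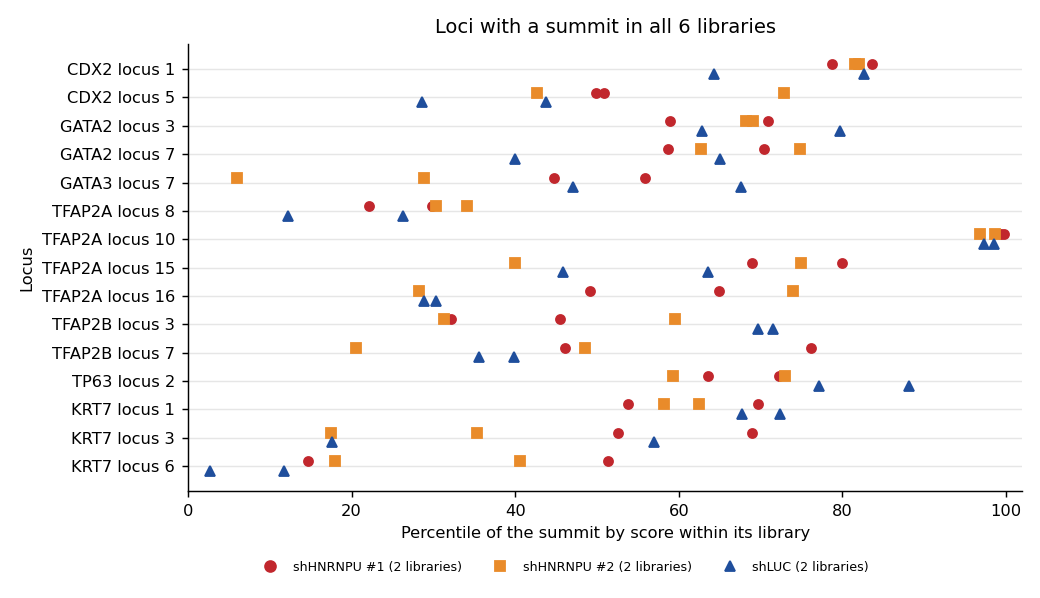
Percentile of the summit within its library (horizontal axis) for the 15 loci with a summit in all 6 libraries, with symbols for the hairpins. At TFAP2B locus 3 and TP63 locus 2 both shLUC points lie to the right of all shHNRNPU points, and at KRT7 locus 6 both lie to the left.

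The strongest loci of the other genes did not separate the groups. At CDX2 it was locus 1 (chromosome 13, position 27953957), 6961 bp outside the gene and 431 bp from an end of LINC00543, with percentiles of 78.7 and 83.7 with shHNRNPU #1, 81.6 and 82.0 with shHNRNPU #2, and 64.3 and 82.7 with shLUC. At the CDX2 start itself, locus 9 was 82 bp upstream and locus 8 was 215 bp downstream. Each of these was held by 3 shHNRNPU libraries and by shLUC repeat 1, with mean percentiles of 24.8 and 28.0 where present. In shHNRNPU #1 repeat 1, shHNRNPU #2 repeat 2 and shLUC repeat 1 both loci held the same summit, at 32.3, 6.41 and 26.9. They are therefore not separate sites in those libraries. CDX2 loci 11 to 13 lay nearer to an end of URAD, a neighbouring gene of urate breakdown, at distances of 329, 760 and 1048 bp.

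At GATA2 the strongest was locus 3 (chromosome 3, position 128487953), 577 bp downstream of the inner start, with percentiles of 58.9 and 70.9 with shHNRNPU #1, 69.0 and 68.2 with shHNRNPU #2, and 79.7 and 62.8 with shLUC. GATA2 locus 7, also in all 6 libraries, lay 4645 bp upstream of the closed outer start, in sequence covered by GATA2-AS1, with percentiles from 39.9 to 74.8. The outer start therefore lay between open sites without a call of its own.

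At GATA3 the strongest was locus 7 (chromosome 10, position 8053468), 173 bp upstream of the start at 8053641 and 16 bp from an end of GATA3-AS1. Its percentiles were 55.9 and 44.7 with shHNRNPU #1, 28.9 and 6.01 with shHNRNPU #2, and 67.5 and 47.0 with shLUC. The lowest values were those of shHNRNPU #2, and the groups overlapped because shHNRNPU #1 reached into the range of the controls. All 6 libraries had a summit within the printed GATA3 promoter, at bases −41 and −1 with shHNRNPU #1, −7 and −43 with shHNRNPU #2, and −173 and 20 with shLUC. The GC boxes marked there run from base −147 to −7. Of the other printed promoters none had a summit within its 300 bases, including those of TFAP2A and GATA2 that count as open.

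At ELF5 the strongest was locus 2 (chromosome 11, position 34513063), 1339 bp upstream of the start, with percentiles of 53.4 and 43.7 with shHNRNPU #2, 30.1 in shLUC repeat 2 and no summit with shHNRNPU #1. ELF5 locus 3, 1879 bp upstream of the listed start, was held by both libraries of shHNRNPU #1 (21.5 and 45.5). It was also held by shHNRNPU #2 repeat 1 (4.62), and by no shLUC library. ELF5 loci 2 and 3 both lay inside the gene span, 731 and 191 bp from its outer end. At KRT7 the strongest was locus 1 (position 52213689), 106 bp from an end of LINC02874 and 19554 bp outside KRT7, with percentiles from 53.8 to 72.4. KRT7 locus 3, 60 bp outside the lower end of the gene, was present in all libraries with 52.6 and 68.9, 35.3 and 17.4, and 17.6 and 56.9. The one locus of CGA (chromosome 6, position 87079220) lay 6278 bp outside the gene and nearer to LOC124901354, at 5631 bp.

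The start of TFAP2B depended on which coordinate was used. A summit lay within 2000 bp of the lower end of the span, at 50818355, in all 4 shHNRNPU and no shLUC library. This pattern was found at 0.369% of the ends of all genes (the reverse at 0.175%). The end was picked from 18 ends, so that this share is no p-value for it. Around the listed start at 50818871, shLUC repeat 2 had a summit as well. TFAP2B locus 1, 934 bp downstream of that start, was held by 3 shHNRNPU libraries at percentiles of 28.9, 32.3 and 13.2 and by no shLUC library. TFAP2B locus 2, centred 2103 bp from the lower end, was held by shHNRNPU #1 repeat 1 (10.7), shHNRNPU #2 repeat 2 (11.1) and shLUC repeat 2 (3.30). In 3 shHNRNPU libraries the summit at the lower end was that of locus 1, centred 1450 bp from it. Those of shHNRNPU #1 repeat 1 and shLUC repeat 2 lay on either side of the 2000 bp limit, near it. The pattern of 4 and 0 therefore hangs on this limit and on summits of percentile 32.3 or below.

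Other genes of these lineages gave a background. In 25 other trophoblast genes, 14 had a gene end with a summit in all 6 libraries and 8 had both ends closed in all, and in 8 amnion genes 4 and 4. For the 9 genes above it was 4 and 2, and over all genes 68.5% and 20.2%. The median of the mean highest percentile was 64.1 for the 9 genes, 68.1 for the other trophoblast genes, 65.6 for the amnion genes and 86.0 over all genes. It was 84.9 for the pluripotency genes, 67.7 for 9 endoderm genes, 71.5 for 8 mesoderm genes and 72.9 for 8 neuroectoderm genes. No gene of these last 4 lists had both ends closed in all libraries. Some genes, such as GATA4 and HAND1, stand in more than one list.

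The number of summits did not overlap between groups in 1 of 25 other trophoblast genes and 1 of 8 amnion genes, both higher. NR2F2, a nuclear receptor of placental cells, had 11 and 10 summits with shHNRNPU #1, 9 and 9 with shHNRNPU #2, and 7 and 7 with shLUC. BMP4, a ligand that drives pluripotent cells toward these fates, had 6 and 7, 5 and 5, and 4 and 4. Of 18 relatives and partners of the 9 genes, GATA4 (14 and 14, 13 and 12, 11 and 9) and GATA5 (3 and 2, 2 and 4, 1 and 1) were higher, and TFAP2D (3 and 4, 4 and 4, 7 and 5) was lower. TFAP2D lies on the same chromosome as TFAP2B and encodes another AP-2 factor. Among the pluripotency genes, SALL4 was higher (4 in each shHNRNPU library, 3 in each shLUC library) and NANOG lower (2 and 2, 1 and 1, 4 and 3), and 1 gene each was higher among endoderm (GATA4) and neuroectoderm genes (SIX3). The same shares of 3.31% higher and 3.67% lower over all genes apply to each of these counts.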

How the data were processed

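Chromatin accessibility of H1 cells was measured by ATAC-seq in 6 libraries, whose titles give the hairpin and the repeat. The article supplied with these data describes other libraries and served for style only. For each library the authors deposited summits of 1 bp with a score that is the −log10 q-value of the peak within that library. The submitters' processing notes name cutadapt, Bowtie2, SAMtools, MACS2, deepTools and hg38. Versions, filters and thresholds are not given in the sources used here. Peaks were called per library, and scores were not normalized.

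Summits on 24 chromosomes were used, and each score was turned into its percentile within its library. Loci were built from all libraries, taking the summit of highest percentile first and absorbing those within 250 bp. Genes, ends and promoters came from RefSeq on GRCh38.p14. Promoter windows were found for 8 of the 9 genes, and KRT7 had none. Differences between group means were tested by exact permutation over all 15 assignments (two-sided, the smaller tail doubled), with Benjamini-Hochberg adjustment over all genes or loci. A difference was called where the groups did not overlap. The grouping into loci and the calls on summit counts were tested on simulated data, with well separated loci and large changes. Calls on percentiles, gene ends and lost or gained loci were not simulated. Python 3.11.15, numpy 2.4.6, pandas 2.3.3, scipy 1.17.1 and matplotlib 3.10.9 were used.

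The 9 genes, the other gene lists and the tests were chosen with earlier results of these data known. The rule for named loci took the strongest of each gene, lost and gained loci, loci in all libraries without overlap, and loci nearer to another protein-coding gene. Other genes were named where their number of summits did not overlap between groups. Loci beside a start and the other loci given with values were chosen after their values were seen. Alternatives were windows of 5 and 50 kb, match distances of 100 and 500 bp, and gene-end distances of 500 and 1000 bp. Others were absence judged within 1000 bp, lists cut to one size, scores of 5 or more, leaving out each library, and a replicate block.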

Additional observations from a re-analysis of the deposited data

Results flagged for a closer look

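Among the 4 shHNRNPU libraries, 2 counts stood apart from the other 3 by more than Dixon's test at the 95% level allows. TFAP2B had 7 summits in shHNRNPU #2 repeat 2 and 6 in each of the others. ELF5 had 3 summits in shHNRNPU #2 repeat 1 and 1 in each of the others. Of 35 measures examined, chance flags about 1 in 20, or 1.75. Both counts are whole numbers with ties, so that a step of 1 or 2 summits is enough to be marked.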

How the results depend on the processing

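Of 62 recomputed differences 59 kept their direction and the separation of the groups, 3 lost the separation and 0 reversed. All were differences whose groups did not overlap at the main settings. Leaving out a library or blocking by repeat cannot make such groups overlap or reverse, so the outcome of those recomputations was fixed beforehand. The 3 losses came with windows of 5 or 50 kb. Of 106 recomputed counts 59 were identical, 11 changed by at most 1.5 times and 36 moved further. With a window of 5 kb, 0 of the 9 genes had more summits without overlap, the difference over the 9 windows was 5.25 summits with overlapping groups (8 at 20 kb), and that of TFAP2A was 0.5. With a window of 50 kb the sums also overlapped, at a difference of 9.25. A score of at least 5 left 1 gained locus, and lists of one size gave 4 gained loci and 2 loci of higher percentile. A match distance of 100 bp gave 0 loci of higher and 1 of lower percentile, and 500 bp gave 2 of higher percentile. A gene-end distance of 500 bp gave 12 closed span ends and 7 closed starts, and 1000 bp gave 9 and 5. Scores of at least 5 gave 10 and 5, so that some ends were open only through weak summits. The cause was not tested. Shares over all genes and loci were computed at the main settings only, so that counts at other settings have no background.

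Leaving out one library at a time gave 1 to 3 genes with more summits (2 without shLUC repeat 1 and 3 without shLUC repeat 2), 0 with fewer, 0 to 2 with a higher and 1 to 3 with a lower highest percentile (2 and 3 without shLUC repeat 2, and at most 1 and 2 without any other library), and a difference over the 9 windows of 6.17 to 9.50 summits. It gave 0 to 4 lost and 2 to 6 gained loci, with 3 lost without shLUC repeat 1 and 4 without shLUC repeat 2, 1 lost without shHNRNPU #1 repeat 1 or #2 repeat 2, and 5 gained without shHNRNPU #2 repeat 2, 6 without shLUC repeat 1 and 5 without shLUC repeat 2. Loci of higher percentile numbered 1 to 5, with 5 without shHNRNPU #2 repeat 1 and 5 without shLUC repeat 2, and those of lower percentile 2 to 4, with 4 without shLUC repeat 2. With fewer libraries groups separate more easily, so these counts are not like for like. Closed span ends numbered 7 to 9, with 9 without shHNRNPU #2 repeat 1, and closed starts 4.

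Repeat numbers did not pair the samples. The correlation of same-numbered libraries' deviations from their group means lay between −0.0652 and 0.0294. With repeat as a replicate block, 1 gene had a higher and 2 a lower highest percentile, and 4 loci each had a higher and a lower percentile, while the smallest p within repeats is 0.222. The lists hold no read depth and therefore set no detection limit.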

Other observations

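Several other genes of these lineages had a highest percentile in their window that did not overlap between the groups, and they were chosen after their values were seen. GCM1, a transcription factor of the syncytiotrophoblast, had 77.2 and 84.9 with shHNRNPU #1, 64.6 and 87.9 with shHNRNPU #2, and 91.2 and 90.1 with shLUC. ENPEP, an aminopeptidase of the cell surface, was also lower with shHNRNPU, at 43.5 and 66.4, 51.4 and 10.9, and 80.0 and 73.9. Of the amnion genes, ISL1, a LIM homeobox transcription factor, was higher, at 85.6 and 85.4, 83.8 and 83.8, and 71.5 and 83.4. POSTN, a secreted matrix protein, was lower, at 55.2 and no summit, 81.1 and 70.5, and 92.0 and 81.3. Among relatives of the 9 genes, ELF3, an epithelial ETS factor, was lower, at 87.8 and 87.4, 91.8 and 80.2, and 92.6 and 93.1. Over all genes 11.3% were higher and 9.64% lower in this way.

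TFAP2A and TP63 had the largest range in number of summits over the libraries, 5 summits each. By the sum of absolute differences in summits over the 6 libraries, the genes most like TFAP2A outside its window were ESPN (2), FLI1 (4) and DOCK4 (5, a value shared by 7 genes). Those most like TP63 were VSIG10 (2), SNAP25 (3) and TTC9 (3, a value shared by 6 genes).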
